A study of Rattus norvegicus with 47 samples.

Results

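Chitinase-like and resistin-like genes encode secreted proteins that lungs and their macrophages make in inflammation and repair. Arginase 1, an intracellular enzyme of neither family that mouse macrophages also make, is described with these genes. The 6 genes are Chi3l1, Chia, Chit1, Retnla, Retn and Arg1, taken by gene name from the 30045 lines of each of 4 gene count tables, where each stood on 1 line. The RNA came from lung tissue and from whole blood of male rats of the inbred strain Fischer 344, described as healthy; their age was not given in the labels used here. The rats had inhaled either an aerosol of Min-U-Sil 5, ground crystalline silica of small particle size, at 15 mg/m3 or filtered air, in both cases over their whole body for 6 h a day on 5 days. Tissue was taken 1 day or 6 months after exposure. The 8 groups were silica and air lung at 1 day, silica and air lung at 6 months, and the same groups of blood, each with 6 libraries except air lung at 6 months with 5. No group carried an added gene or a deletion. Chambers are not given, so silica and chamber cannot be told apart, and nothing states separate litters, so p-values measure the spread between the libraries of a group.

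Chitinases cut chitin, the polymer of fungal walls and insect shells, which mammals do not make. Chia, the acidic mammalian chitinase, and Chit1, chitotriosidase, are active enzymes, whereas Chi3l1 binds chitin without cutting it and acts as a cytokine-like signal through IL-13 receptor alpha 2 and Tmem219. Chia is made in mouse lung mainly by secretory epithelium, Chit1 in human by macrophages, and Chi3l1 by macrophages, neutrophils and epithelium. Retnla, also called FIZZ1 or RELM alpha, is induced by IL-4 and IL-13 in macrophages and lung epithelium of the mouse. Retn, resistin, is an adipocyte hormone in rodents, and Arg1 is the arginase of the liver urea cycle, which mouse macrophages also make in the alternatively activated state.

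In silica lung, 3 of these genes were higher at both times: Chi3l1, Chia and Retnla. Retnla stood 12.1-fold above air at 6 months, the largest difference among the 5 genes tested, and 2.12-fold above air at 1 day. Chit1 was lower in silica lung at both times, at a fitted 0.804 of its air level at 1 day and 0.841 at 6 months. Arg1 rose at 6 months, and Retn was at or near 0 counts throughout. Blood held Chi3l1 at levels like those of silica lung and almost none of the other 5 genes.

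Some of the genes are neighbours in the genome. In the RefSeq annotation of GRCr8, a later assembly than that of the counts, Chit1 and Chi3l1 are next to each other on chromosome 13, with no other protein-coding gene between them, and in these lungs they moved in opposite directions. Chia lies on chromosome 2 beside Chi3l3, the rat gene named for the mouse protein Ym1. Retnla lies on chromosome 11 between Retnlg and Retnlb, and Retn and Arg1 lie apart on chromosomes 12 and 1. The 250 bases before the annotated start of Chi3l1, Chia and Chit1 are shown from RefSeq, because these are the chitinase-like genes that rose or fell in lung. Positions count back from the start, and capitals mark motif matches found by script.

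Chi3l1, chr13:48193589-48193838, plus strand: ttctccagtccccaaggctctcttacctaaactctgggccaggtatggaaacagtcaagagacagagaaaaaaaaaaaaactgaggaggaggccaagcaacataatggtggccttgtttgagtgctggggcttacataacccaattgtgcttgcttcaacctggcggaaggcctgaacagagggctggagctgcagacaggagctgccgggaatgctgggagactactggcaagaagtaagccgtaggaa
Chia, chr2:196302437-196302686, plus strand: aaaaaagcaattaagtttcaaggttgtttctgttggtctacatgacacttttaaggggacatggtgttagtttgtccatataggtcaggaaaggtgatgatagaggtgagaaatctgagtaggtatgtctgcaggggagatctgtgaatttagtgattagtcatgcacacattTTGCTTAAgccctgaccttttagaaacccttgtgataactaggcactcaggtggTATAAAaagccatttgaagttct
Chit1, chr13:48117636-48117885, plus strand: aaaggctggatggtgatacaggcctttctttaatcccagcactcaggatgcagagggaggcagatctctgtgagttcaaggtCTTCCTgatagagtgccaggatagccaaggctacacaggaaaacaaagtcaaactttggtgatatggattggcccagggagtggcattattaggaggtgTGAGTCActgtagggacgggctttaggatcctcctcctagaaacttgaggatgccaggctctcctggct

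Searched on both strands were 6 motifs: the STAT6 motif (TTC and GAA with any 4 bases between them), the AP-1 motif TGANTCA, the NF-kB motif (GGG and TTTCC with any 2 bases between them), the C/EBP motif TTGCNNAA, the PU.1 motif AGGAAG and the TATA box TATAAA. The Chia window held the C/EBP motif from -77 to -70, which 9.22% of 33469 rat windows of that length also hold, and the TATA box from -23 to -18, held by 12.93%. The Chit1 window held the AP-1 motif from -69 to -63, held by 6.34% of windows, and the PU.1 motif on the minus strand from -168 to -163, held by 29.51%. None of the 6 motifs was in the Chi3l1 window. No match overlapped another. The STAT6 motif, held by 6.25% of windows, and the NF-kB motif, held by 1.3%, were in none of the 3 windows. A match is a description of letters and not a bound site. Retnla, Retn and a second Chit1 start lie inside the annotated genes and are not shown, and Arg1 is named only.

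Total estimated counts ran from 9643528 to 25875991 per library, the lowest in silica blood at 6 months and the highest in air lung at 1 day. Levels are given as CPM, each count divided by its library total and scaled to the same total, which carry no correction for transcript length, so levels of different genes are not compared. Tissue labels were checked against markers. Sftpc, surfactant protein C of alveolar type 2 cells, was at 8053 to 11936 CPM in lung and at most 0.0835 CPM in blood. Alas2, an enzyme of red cell precursors, was at 20058 to 32303 CPM in blood. Red cell RNA was present in lung too: the 8 red cell markers measured, Alas2 among them, summed to 3394 to 7016 CPM in lung. In blood they summed to 49451 to 104936 CPM. All fold changes below are from edgeR's quasi-likelihood test, log2 of silica over air ± SE, and p-values are adjusted by Benjamini-Hochberg over all genes tested, with 0.05 as the threshold. In bulk RNA, a change in the number of cells of a type and a change in RNA per cell cannot be told apart.

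**Figure D1:**
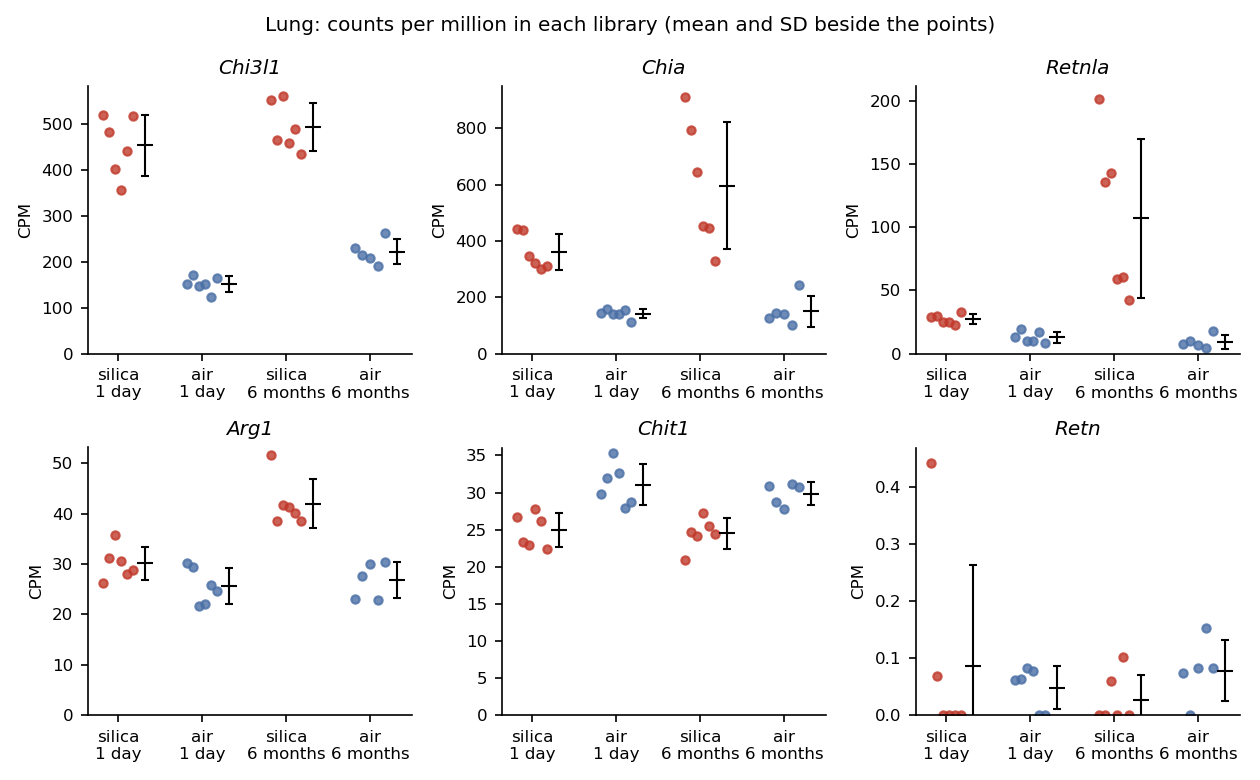
Lung levels of the 6 genes in CPM on linear axes from 0, with 1 point per library (silica red, air blue; n = 6 per group and 5 for air at 6 months) and a bar for mean and SD, cut at 0 for Retn. Silica libraries of Chi3l1, Chia and Retnla lie above every air library at both times, those of Chit1 lie below, and those of Arg1 lie above at 6 months.

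Chi3l1, the chitin-binding signal protein, had in silica lung at 1 day a lowest level of 355 CPM, a median of 461 and a highest of 519. In air lung at 1 day these were 123, 152 and 171 CPM. No library of the groups overlapped, and the mean was 453 ± 65.9 CPM in silica against 151 ± 16.8 CPM in air lung (SD, n = 6 each). The log2 fold change was 1.58 ± 0.10 (edgeR adjusted p = 4.175e-07). At 6 months the silica lungs ran from 435 through a median of 476.5 to 560 CPM, against 229.6, 214.5, 209, 191 and 262 CPM in the 5 air lungs. Again every silica lung was above every air lung, with a log2 fold change of 1.19 ± 0.09 (edgeR adjusted p = 1.442e-05). The difference between the 2 times was -0.38 ± 0.14 on the log2 scale, 6 months over 1 day, and did not pass the test (edgeR adjusted p = 0.2116).

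Chia, the acidic chitinase, ran in silica lung at 1 day from 299 through a median of 335 to 444 CPM. In air lung it ran from 114 through 142 to 160 CPM, so the groups did not overlap. Its log2 fold change at 1 day was 1.345 ± 0.11 (edgeR adjusted p = 3.571e-06). At 6 months the silica lungs spread widely. Chia was at 910 CPM in animal 58, 795 in animal 59, 646 in animal 60, 454 in animal 61, 447 in animal 62 and 329 in animal 64. The 5 air lungs held 126, 142, 139, 100.4 and 244 CPM, the last of them animal 54. Every silica lung was still above every air lung, and the log2 fold change was 2.03 ± 0.29 (edgeR adjusted p = 0.0006956). The difference between times was 0.69 ± 0.31 and missed the threshold (edgeR adjusted p = 0.3258).

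Chit1, the other active chitinase, was lower after silica. At 1 day it ran from 22.4 through a median of 24.8 to 27.8 CPM in silica lung, against 28.0 through 30.9 to 35.4 CPM in air lung. The ranges came within 1 CPM of each other but did not overlap, and the log2 fold change was -0.32 ± 0.07 (edgeR adjusted p = 0.006166). At 6 months silica lungs ran from 20.9 through 24.6 to 27.2 CPM, against 30.9, 28.7, 27.8, 31.2 and 30.7 CPM in air lungs, again without overlap. The log2 fold change at 6 months was -0.25 ± 0.06 (edgeR adjusted p = 0.009676). The difference between times was 0.07 ± 0.09 (edgeR adjusted p = 0.7891), with a 95% interval from -0.11 to 0.25. Chit1 and its neighbour Chi3l1 thus differed from air in opposite directions at both times, with each call made in its own test.

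Retnla, the resistin-like protein of alternative activation, ran in silica lung at 1 day from 22.3 through a median of 27.2 to 32.6 CPM. Air lungs ran from 8.35 through 11.6 to 19.2 CPM and stayed below the silica range. The log2 fold change was 1.08 ± 0.18 (edgeR adjusted p = 0.001066). At 6 months the silica lungs held 202 CPM in animal 58, 136 in animal 59, 143 in animal 60, 58.7 in animal 61, 60.65 in animal 62 and 42.5 in animal 64. The air lungs held 7.60, 9.90, 6.43, 4.10 and 17.8 CPM, the last again animal 54. The lowest silica lung was still above the highest air lung, and the spread within silica was wide: the mean was 107 ± 62.8 CPM (SD, n = 6), against 9.17 ± 5.27 CPM in air lung (n = 5). The log2 fold change was 3.595 ± 0.49 (edgeR adjusted p = 0.000517).

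Of the 5 genes tested in lung, Retnla alone passed the test of a difference between times. Its silica effect was 2.51 ± 0.53 log2 units larger at 6 months than at 1 day (edgeR adjusted p = 0.0138; 95% interval 1.482 to 3.54), in a test that called 1.12% of 15786 genes in that direction. With limma-voom the difference was 2.38 and the adjusted p 0.1119, which is past the threshold no longer. In edgeR it stayed past the threshold with any library left out, with adjusted p from 0.004319 to 0.03624. The mean level of Retnla in air lung was 9.17 CPM at 6 months and 12.96 CPM at 1 day, with overlapping ranges.

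Arg1, arginase 1, ran in silica lung at 1 day from 26.3 through a median of 29.8 to 35.7 CPM, against 21.7 through 25.3 to 30.1 CPM in air lung. The groups overlapped, with 3 silica lungs above every air lung, and the log2 value of 0.23 ± 0.10 did not pass the test (edgeR adjusted p = 0.1235). At 6 months the silica lungs ran from 38.6 through 40.7 to 51.7 CPM, against 23.2, 27.7, 29.9, 22.8 and 30.3 CPM in the air lungs. They did not overlap, and the log2 fold change was 0.69 ± 0.10 (edgeR adjusted p = 0.0008424). The difference between times was 0.46 ± 0.15 and missed the threshold (edgeR adjusted p = 0.131), so the rise at 6 months is not shown to exceed the value at 1 day.

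Retn, resistin, had 0 to 6 counts in every lung and blood library and was not tested. The highest lung library, animal 43 of the silica group at 1 day, held 6 counts (0.442 CPM), and each other lung library held at most 2. Rodent Retn is known from fat, and a list of adipocyte markers was measured beside it. Of the 10, Ucp1 was at 0 in every lung group, silica and air, and Plin1 was at 0 in every lung group but air at 1 day. Adipoq was at most 0.416 CPM in silica lung and 0.299 CPM in air lung. The other members were detected: the list summed to 94.5 to 122 CPM in silica against 105 to 144 CPM in air lung at 1 day, and to 102 to 151 CPM in silica against 132 to 159 CPM in air lung at 6 months. Of 4 tested at 1 day Cfd, complement factor D, fell (log2 -0.70), and of 5 tested at 6 months Cidea, a lipid droplet protein, rose (0.43). In blood at 1 day Cfd rose (0.42), 1 of 2 tested. Of all genes tested, 5.72% fell in lung at 1 day, 9.85% rose in lung at 6 months and 1.25% rose in blood at 1 day. Of the Retn family, Retnlb was at 0 in all libraries but 1, and Retnlg was measured at 17.6 ± 3.29 CPM in silica against 20.7 ± 4.75 CPM in air lung at 1 day (SD, n = 6 each). Retnlg passed no test in lung or blood, with log2 values of -0.23 ± 0.15 at 1 day and -0.19 ± 0.16 at 6 months in lung. The family thus held 1 gene that rose in lung, Retnla, out of 2 tested. Beside this, 8.39% of all genes rose in lung at 1 day and 9.85% at 6 months.

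Of the 5 genes tested in lung 4 passed at 1 day, where 14.1% of 15331 genes did: 3 were higher, as were 8.39% of all genes, and 1 was lower, as were 5.72%. At 6 months 5 of the 5 passed, where 16.2% of 15309 genes did, 4 of them higher (9.85% of all genes) and 1 lower (6.38%). Silica libraries all above air libraries were found for 3 of the 6 genes at 1 day, against 3.74% of genes with a count, and all below for Chit1, against 1.96% of genes. At 6 months 4 of the 6 genes lay all above and Chit1 all below, against 4.07% of genes in each direction. The members were chosen with earlier results of these data known, so these shares describe the 6 genes and test nothing.

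**Figure D2:**
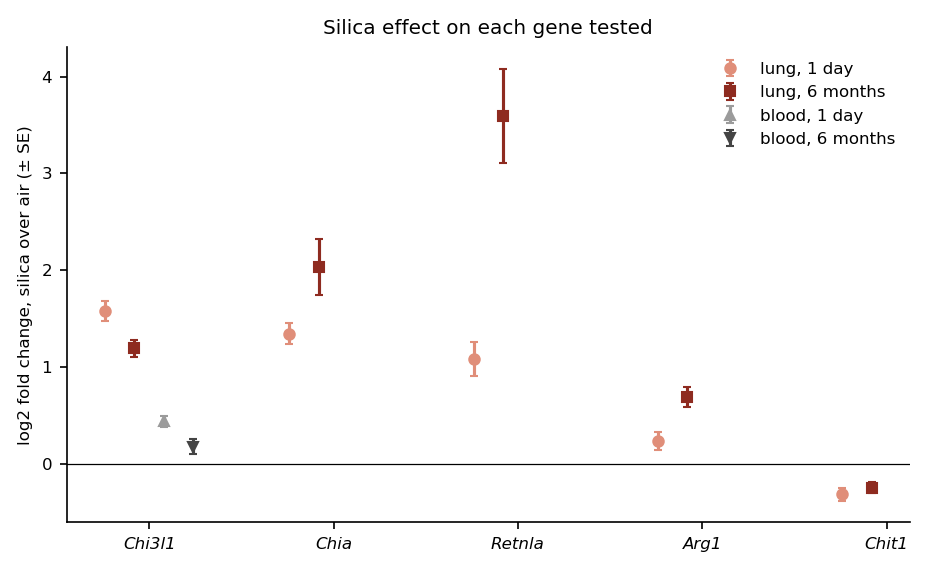
Log2 fold change of silica over air with SE (vertical axis) for the 5 genes tested, by tissue and time. Retnla at 6 months is highest at 3.595, Chit1 is below 0 at both times in lung, and the only gene tested in blood, Chi3l1, has 0.18 at 6 months and 0.44 at 1 day.

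In blood, Chi3l1 was the only one of the 6 genes with enough counts to test. At 1 day it ran from 481 through a median of 544 to 562 CPM in silica blood, against 314.5 through 380 to 424 CPM in air blood (n = 6 each). The groups did not overlap, as for 1.12% of genes with a count, and the log2 fold change was 0.44 ± 0.06 (edgeR adjusted p = 0.002245), where 1.25% of 12253 genes passed as higher. At 6 months silica blood ran from 506 through 577 to 732 CPM and air blood from 435.5 through 515 to 532 CPM. The groups overlapped, with 4 silica libraries above every air library, and the log2 value of 0.18 ± 0.08 did not pass (edgeR adjusted p = 0.5628; 0.0086% of 11629 genes passed, 1 gene). The highest of these libraries, animal 63 at 732 CPM, also had the highest scaling factor of that table, 1.168, which edgeR uses to lower its level. The blood difference between times was -0.25 ± 0.10 and did not pass (edgeR adjusted p = 0.3536). In that test 0 of 12444 genes passed with edgeR, or 0%, 1327 had an unadjusted p under 0.05, and limma-voom called 0.

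The silica effect on Chi3l1 was larger in lung than in blood at each time. The lung effect exceeded the blood effect by 1.09 ± 0.12 log2 units at 1 day (edgeR adjusted p = 4.596e-06; 2.06% of genes called in that direction) and by 0.99 ± 0.12 at 6 months (edgeR adjusted p = 5.671e-05; 2.55% called). With the animal number as a replicate block, which pairs lung and blood of the same number, the differences were 1.089 at 1 day and 1.025 at 6 months and both calls were kept. Levels had another order. Mean Chi3l1 was highest in silica blood at 6 months (590 CPM), followed by silica blood at 1 day (535), air blood at 6 months (503), silica lung at 6 months (492.8), silica lung at 1 day (452.5) and air blood at 1 day (378). Each of these overlapped its neighbour in the order. Air lung came last, at 221 CPM at 6 months and 151 CPM at 1 day, and did not overlap the group above it in either case. Blood and lung differ in globin depletion and in cell makeup, and each table holds 1 tissue at 1 time, so this order is a description.

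The other 5 genes were at or near the floor in blood. Chia had 0 counts in all 24 blood libraries; the limit that 3 counts over a group allow was 0.0320 CPM in silica and 0.0337 CPM in air blood at 1 day, for counting error only. Retnla had 1 count in 1 silica library at 1 day and 0 in the others. Chit1 had 1 to 6 counts per library. Arg1 reached 24 counts in a silica and 20 in an air blood library at 1 day, and at 6 months at most 3 in silica and 6 in air blood. Retnlg, in contrast, was abundant in blood, at 302 ± 40.7 CPM in silica against 253 ± 31.7 CPM in air at 1 day (SD, n = 6 each; log2 0.18 ± 0.10, edgeR adjusted p = 0.4882).

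Neutrophils and macrophages are known sources of several of these proteins, and their markers were measured beside them. Of 13 neutrophil markers, 7 of 9 tested rose in silica lung at 1 day and 4 of 9 at 6 months, with none lower, where 8.39% of all genes rose at 1 day and 9.85% at 6 months. Their summed level ran over 333 to 707 CPM in silica against 120 to 251 CPM in air lung at 1 day. At 6 months it ran over 466.2 to 650.1 CPM in silica against 222 to 335 CPM in air lung. The 4 that rose in lung at 6 months were Lcn2, S100a9, Trem1 and S100a8. Cxcr2, Camp, Csf3r, Mmp8 and Mmp9 did not pass there, with log2 values from -0.09 to 0.26. The granule genes Mpo, Elane and Ltf were at or near 0 in all lungs, at most 0.186 CPM in silica and 0.327 CPM in air lung. In blood at 1 day 4 of 8 tested neutrophil markers rose (1.25% of all genes), with sums of 3500 to 4299 CPM in silica against 2213 to 2780 CPM in air. At 6 months 0 of 9 tested passed in blood, where 0.0086% of all genes did. Their median log2 was 0.26, against -0.0087 over all genes tested. The sums were 3394 to 5388 CPM in silica against 3080 to 3756 CPM in air blood. Chi3l1 rose in the same 3 comparisons, and the part of neutrophils in its level was not tested.

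Macrophage markers gave another pattern. The counts of markers that follow stand beside 8.39% of all genes higher and 5.72% lower in silica lung at 1 day, and 9.85% higher and 6.38% lower at 6 months. In silica lung at 1 day 3 of 10 tested rose and 3 fell, with sums of 26563 to 35276 CPM in silica against 26256 to 32672 CPM in air. At 6 months 9 of 10 rose, with sums of 36756 to 48940 CPM in silica against 24831 to 32256 CPM in air. Marco, a scavenger receptor of macrophages, was at most 0.829 CPM in silica lung and 0.163 CPM in air lung. The 6 of 7 alveolar type 2 markers that rose at 6 months, with sums of 28632 to 34425 CPM in silica against 20081 to 25064 CPM in air, moved with Retnla, Chia and Arg1 too. At 1 day 2 of these 7 rose and 1 fell. Of 7 club and goblet markers tested, Bpifb1 rose at both times and Scgb1a1 fell at 1 day, with sums of 4041 to 5726 CPM in silica against 5090 to 7732 CPM in air lung at 6 months. The part of these cells in the levels of Retnla, Chia and Arg1 was not tested. Red cell markers fell with Chit1, 6 of 8 at 1 day and 2 of 8 at 6 months, and their part was not tested either. Of 9 eosinophil markers 4 were tested in lung. At 1 day Siglec8 and Siglec5 rose (log2 0.40 and 0.42) and Ear11 fell (-0.61), and at 6 months Siglec8 rose (0.29) and Ear11 fell (-0.40). The list summed to 77.0 to 94.4 CPM in silica against 67.7 to 88.2 CPM in air lung at 1 day, and to 90.0 to 98.3 CPM in silica against 81.0 to 102 CPM in air lung at 6 months. Eosinophil peroxidase, Epx, was at most 0.151 CPM in silica and 0.247 CPM in air lung. In blood at 1 day Siglec5 and Siglec8 rose too (0.40 and 0.33), 2 of 4 tested, where 1.25% of all genes rose. The part of eosinophils in these levels was not tested. Of 7 liver markers Serpina1 alone was tested in lung and did not pass; the liver enzyme Cps1 was at most 0.295 CPM in silica and 0.163 CPM in air lung. The 5 T and B cell markers tested in lung had log2 values from -0.10 to 0.49 at 1 day (edgeR adjusted p from 0.4495 upwards) and from -0.57 to 0.05 at 6 months (from 0.07507 upwards).

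Within the groups, Chia and Retnla went together from animal to animal. After the mean of each group was subtracted from log2 CPM over the 23 lung libraries, Chia and Retnla had r = 0.910, the highest for each of them among 14890 genes. For Chia the next genes were Ppapdc1b (0.854) and Kng1, kininogen 1 (0.846). For Retnla they were Slc26a4, the anion exchanger pendrin (0.880), and Cfi, complement factor I (0.876). The 3 silica lungs highest for Chia at 6 months, animals 58, 59 and 60, were the 3 highest for Retnla, and animal 54 was the highest of the 5 air lungs at 6 months for both. The libraries share the tissue and come from several groups, and r is a description without a test.

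**Figure D3:**
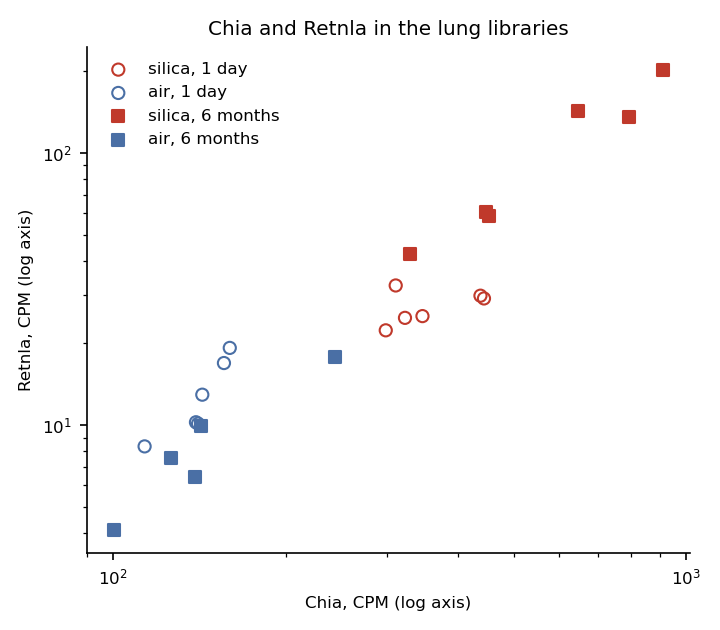
Chia (horizontal) against Retnla (vertical) in CPM on log axes, 1 point per lung library, silica red and air blue, open at 1 day and filled at 6 months. Silica lungs at 6 months run from 329 CPM of Chia and 42.5 CPM of Retnla in animal 64 to 910 and 202 CPM in animal 58.

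The other 3 genes had different companions by the same measure. Chi3l1 in lung was most like Sod2, mitochondrial superoxide dismutase (r = 0.783), Slc7a5, an amino acid transporter (0.769), and the complement component C3 (0.755). Its r with Chia was 0.483 and with Retnla 0.511. In blood, over 24 libraries, the genes most like Chi3l1 were Bst1 (0.924), Pxk (0.920) and Slc6a6, the taurine transporter (0.915). Arg1 was most like Gpnmb (0.900), Lgmn, a lysosomal protease (0.896), and Naaa (0.883), and Gpnmb was also on the macrophage marker list. Chit1 was most like Zscan21 (0.800), Grap (0.796) and Slc2a8 (0.788), and its r with Arg1 was -0.560. All are descriptions without a test, over libraries of the same tissue that come from several groups and differ in depth.

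The remaining chitinases showed small values. Of the 9 names on the chitinase family list 6 were in the tables and 5 were tested in lung. At 1 day 2 rose and 2 fell (8.39% and 5.72% of all genes), the median log2 being 0.29 against -0.0024 over all genes tested. The gene added to the fall was Ctbs, di-N-acetylchitobiase, a lysosomal enzyme, at -0.15 ± 0.04 (edgeR adjusted p = 0.03402), a call that 7 of 12 reruns with a library left out did not keep. At 6 months Ctbs was at 0.03 ± 0.05 (edgeR adjusted p = 0.7408) and 2 of 5 rose and 1 fell (9.85% and 6.38% of all genes), with a median of 0.16 against -0.0080 over all genes. Chid1 passed at neither time. Chi3l3 had at most 0.0508 CPM in silica lung and 0 in air lung. The receptor genes Tmem219, Cap1, Ptgdr2 and Tlr4 had log2 values from -0.28 to 0.12 over both times, with edgeR adjusted p from 0.105 upwards, and Il13ra2 was too low to test at either time alone. In the test between times, which held more genes, Il13ra2 had a log2 value of 0.94 ± 0.70 and did not pass (edgeR adjusted p = 0.5869).

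Some genes of arginine metabolism rose beside Arg1. At 1 day 3 of 14 genes rose and 1 fell (median log2 0.12), and at 6 months 4 rose and 2 fell (median 0.37). Over all genes the shares were 8.39% higher and 5.72% lower at 1 day, and 9.85% and 6.38% at 6 months. Slc7a1, the main cationic amino acid transporter, was at 21.5 ± 2.09 CPM in silica against 12.4 ± 1.382 CPM in air lung at 1 day (SD, n = 6 each; log2 0.79 ± 0.08, edgeR adjusted p = 2.71e-05). At 6 months its log2 fold change was 0.75 ± 0.10 (edgeR adjusted p = 0.0004431). Odc1, ornithine decarboxylase, which turns the product of arginase into polyamines, rose by 0.26 ± 0.04 at 1 day and 0.31 ± 0.07 at 6 months. Slc7a2, a transporter that activated macrophages use, rose by 0.54 ± 0.17 at 1 day, which 8 of 12 reruns with a library left out did not keep, and by 0.52 ± 0.07 at 6 months. Ass1, argininosuccinate synthase, fell by 0.29 at both times. Its call at 1 day was not kept in 8 of 12 such reruns, and its call at 6 months was not checked by reruns. Nos2, inducible nitric oxide synthase, which competes with Arg1 for arginine, was at 6.584 ± 1.371 CPM in silica against 3.07 ± 1.86 CPM in air lung at 1 day and did not pass (edgeR adjusted p = 0.1289), nor at 6 months (0.06024).

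**Figure D4:**
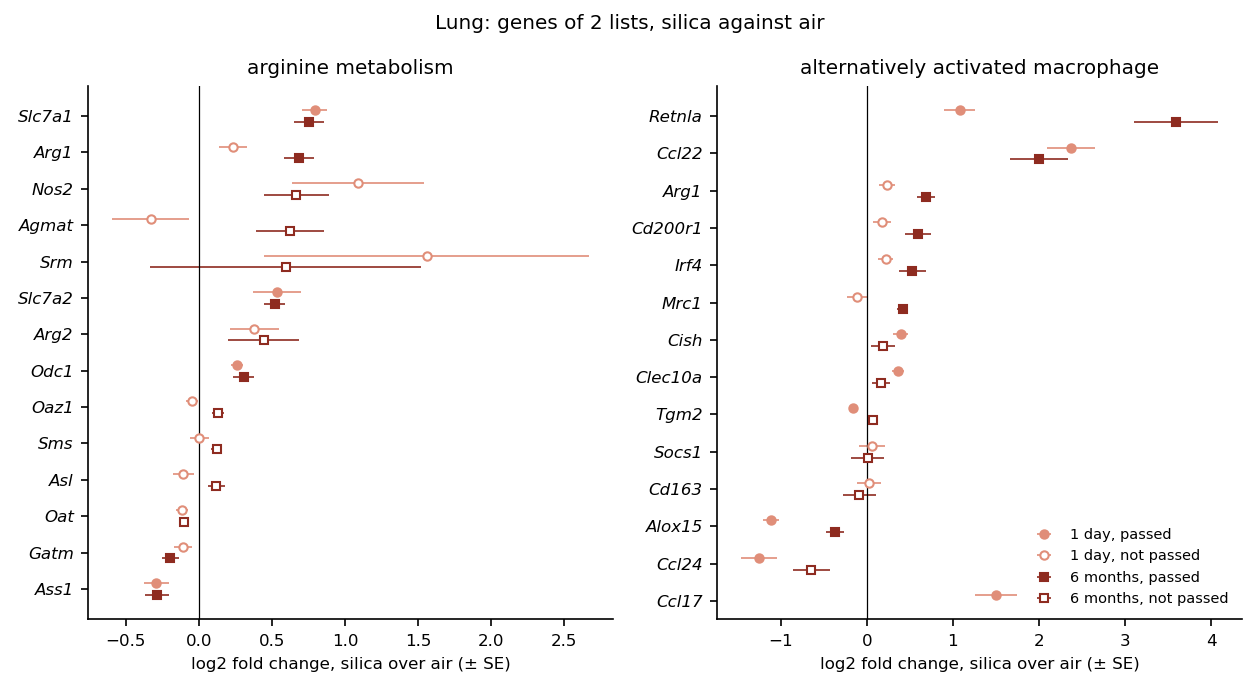
Log2 fold change of silica over air with SE in lung for the arginine metabolism genes (left) and the alternatively activated macrophage genes (right), filled where the edgeR adjusted p passed 0.05; Ccl17 was tested at 1 day only. Retnla and Ccl22 lie farthest right at 6 months, and Ccl24 and Alox15 lie left of 0 at both times.

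Genes of alternatively activated macrophages moved in both directions. At 1 day 5 of 14 tested rose and 3 fell (median log2 0.20), and at 6 months 6 of 13 rose and 1 fell (median 0.19). Of all genes tested 8.39% rose and 5.72% fell at 1 day, and 9.85% rose and 6.38% fell at 6 months. Ccl22, a chemokine for T helper 2 cells, was at 4.54 ± 1.58 CPM in silica against 0.864 ± 0.309 CPM in air lung at 1 day (SD, n = 6 each; log2 2.375 ± 0.28, edgeR adjusted p = 6.428e-05). At 6 months its log2 fold change was 1.996 ± 0.34 (edgeR adjusted p = 0.001864). Ccl17, which shares its receptor, rose by 1.496 ± 0.24 at 1 day. Ccl24, another chemokine on the list, went the other way, with a log2 value of -1.249 ± 0.21 at 1 day (edgeR adjusted p = 0.001126). At 6 months Ccl24 was at -0.64 ± 0.21 and did not pass (edgeR adjusted p = 0.057). Tgm2 was lower at 1 day too, at -0.16 ± 0.04 (edgeR adjusted p = 0.00972). The calls of Ccl24 and Tgm2 at 1 day were not checked by reruns. Mrc1, the mannose receptor, rose by 0.42 ± 0.07 at 6 months and was at -0.11 ± 0.12 at 1 day without passing. Alox15, the 15-lipoxygenase that IL-4 induces, fell at both times, with log2 values of -1.11 ± 0.09 at 1 day (edgeR adjusted p = 2.328e-06) and -0.37 ± 0.11 at 6 months (edgeR adjusted p = 0.03203). The call at 6 months was not checked by reruns. The fall of Alox15 was smaller at 6 months, with a difference between times of 0.75 ± 0.14 log2 units (edgeR adjusted p = 0.006213). Retnla and Arg1 are themselves on this list, so its counts include them.

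The cytokines that drive Retnla and Arg1 in mouse macrophages were scarcely measured here. Il4 was at most 0.0621 CPM in silica and 0.165 CPM in air lung, and Il13 at most 0.231 CPM in silica and 0.0748 CPM in air lung. Of 8 tested genes on the type 2 list 2 rose and 1 fell at 1 day, and 1 rose and 1 fell at 6 months, where 9.85% of all genes rose and 6.38% fell (8.39% and 5.72% at 1 day). With 8 genes, a count of 1 is near those shares. Il1rl1, the receptor of IL-33, rose by 0.43 ± 0.07 at 1 day (edgeR adjusted p = 0.0005461) and by 0.38 ± 0.06 at 6 months. Il33 itself was lower, at -0.18 ± 0.05 at 1 day, where 9 of 12 reruns with a library left out lost the call, and at -0.41 ± 0.05 at 6 months (edgeR adjusted p = 0.0004446). Of the epithelial genes that answer IL-13, Slc26a4 was at 93.6 ± 38.2 CPM in silica (SD, n = 6) against 11.2 ± 4.44 CPM in air lung (n = 5) at 6 months, a log2 fold change of 3.10 ± 0.33 (edgeR adjusted p = 0.0001156). At 1 day it rose by 2.44 ± 0.24. The list as a whole had 1 of 8 higher and 1 lower at 1 day, near the 8.39% and 5.72% of all genes, and 2 of 7 higher at 6 months, where 9.85% of all genes were.

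In blood, few genes of these lists passed outside Chi3l1 and the cell markers. Gatm, which makes the creatine precursor from arginine, rose by 0.30 ± 0.05 in blood at 1 day (edgeR adjusted p = 0.01395), and in lung at 6 months it fell by 0.20 (edgeR adjusted p = 0.03798). The lung call was not checked by reruns. Il13ra1, a receptor chain for IL-13, rose by 0.33 ± 0.06 in blood at 1 day (edgeR adjusted p = 0.01483), a call that was lost with all 4 blood groups in 1 model (adjusted p = 0.1023).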

How the data were processed

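RNA of 23 lung and 24 blood libraries was analysed in 8 groups taken from the labels. Per the labels' protocols, globin RNA was removed from blood RNA and libraries were stranded. Rnor_6.0, Salmon 1.10.1, STAR 2.6.1d, Trim Galore 0.6.7, cutadapt 3.4 and bcl2fastq 2.19 are named without roles in the submitters' processing notes. The authors deposited 4 tables of expected counts per gene, not normalized, which were rounded to whole numbers; such counts split reads between similar genes, so family members are uncertain. Columns were matched by title, with 0 left over. CPM divides by the library total. edgeR 4.0.16 (R 4.3.3) gave the tests: filterByExpr at a minimum count of 10, TMM factors, quasi-likelihood test, Benjamini-Hochberg over all genes tested, threshold 0.05, within each table, and interactions for time and tissue. SE is the size of log2 fold change divided by the root of F. Scripts were tested on simulated counts. Replicates differed beyond sampling noise (chi-square per degree of freedom 3.616 to 32.89). Floors are 3 counts, for counting error only.

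The 6 genes, the 16 lists and the tests were chosen with earlier results of these data known. Named from each list other than markers were up to 4 members past the threshold with the smallest p, and 3 genes per member by within-group correlation (log2 CPM, prior count 2, mean of at least 1 CPM). Genes named outside this rule, such as list members that did not pass, cell type markers, Gatm in lung and Mrc1 at 1 day, were chosen after their values were seen. Of 147 listed genes 5 were not found by name. Alternatives were DESeq2 1.42.0, limma-voom (limma 3.58.1), other scaling factors (RLE, upper quartile), a minimum count of 50 or no filter, summed gene models, 4 groups in 1 model, robust dispersions and each library left out. Titles of lung and blood share animal numbers, which were taken to mean the same animal although no label says so; an alternative used them as a replicate block. Deviations of same-numbered lung and blood libraries correlated from -0.116 to 0.127 at 6 months (9 animals) and from -0.127 to 0.153 at 1 day (12 animals).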

Additional observations from a re-analysis of the deposited data

Results flagged for a closer look

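Arg1 in silica lung at 6 months had 1 library far from the rest of its group, animal 58 at 51.68 CPM, against 38.6 to 41.8 CPM in the other 5 silica lungs. Without it the log2 fold change stayed within the range of 0.61 to 0.73 seen when libraries were left out. Retn stood apart in animal 43 of silica lung at 1 day, at 0.4423 CPM from 6 counts, and in animal 60 of silica blood at 6 months, at 0.3427 CPM from 4 counts. Both rest on a few counts. In all, 35 groups were screened this way, and chance flags about 1 in 20.

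Among the 6 genes, effects that differed between groups by a test of the difference were those of Retnla and Chi3l1. The Retnla effect in lung was 2.513 log2 units larger at 6 months than at 1 day (edgeR adjusted p = 0.0138). The Chi3l1 effect was larger in lung than in blood by 1.093 log2 units at 1 day and by 0.9907 at 6 months.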

How the results depend on the processing

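Of 451 reruns of the 20 results on the genes tested, 450 kept their direction and their side of the threshold, replicate block included. Retn was not tested and had no reruns. The exception was the Retnla difference between times with limma-voom (2.377, adjusted p = 0.1119). Over all its reruns that adjusted p ran from 0.004319 to 0.1119. The cause was not tested. Named genes of the lists had 542 reruns, of which 45 lost the call and 0 changed direction. Calls of genes named outside the rule, such as cell type markers and Ass1, Alox15 and Gatm in lung at 6 months, were not checked this way. Counts of called genes moved more in blood. At 1 day they were 360 with DESeq2 against 177 with edgeR, and 86 to 211 with a library left out. It moved by over 1.5 times without air libraries 37, 38, 41 or 42 (95, 92, 90 and 95) or without silica libraries 45, 46 or 48 (86, 90 and 87). At 6 months they were 2 with DESeq2 against 1, and 0 to 1 with a library left out; the blood time difference gave 0 to 3. Genes whose effect differed between lung and blood numbered 415 with animals paired as a replicate block against 646 at 1 day, and 210 against 560 at 6 months, where 9 animals had both tissues; leaving out libraries gave 328 to 609, with 328 without air lung 53. Low counts limit what can be said of Retn everywhere and of Chia, Chit1, Retnla and Arg1 in blood.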
